A study of Caenorhabditis elegans with 2 samples.

Results

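The 33 genes described here encode the machinery of autophagy and of the lysosome in Caenorhabditis elegans, together with hlh-30, the gene of a transcription factor that regulates them. They were chosen by name, all 33 symbols were found in the annotation, and they were set against the other 19940 of 19973 protein-coding genes on chromosomes I to V and X. A peak region or a weaker peak candidate was given to a gene when its summit, the base of highest signal, lay in the gene body or within 1000 bp of the annotated 5' end, a stretch called the gene's window below. The data are chromatin immunoprecipitation sequencing (ChIP-seq) of MXL-2 from whole L4 larvae in 2 biological replicates of 1 group. All larvae were of strain RW12316, in which CRISPR inserted a TY1, EGFP and 3xFLAG tag at mxl-2 (allele st12316, chromosome III), and had been synchronised as starved L1 and taken at 48 h. The description in the labels names an antibody against GFP, the antibody field reads mxl-2, and chromatin was sonicated to 200 to 800 bp. Every animal carried the tag, no library of untagged animals was analysed here, and the number of reads per library is unknown. Whole animals were used, so the tissue that gave a peak cannot be told apart.

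In autophagy a double membrane closes around cytoplasm and carries it to the lysosome, where hydrolases digest it. A protein kinase complex starts the process, a lipid kinase complex marks the site, membrane and lipid are brought in, and ubiquitin-like proteins of the LC3 family are joined to the growing membrane. HLH-30 is the worm homologue of mammalian TFEB, a basic helix-loop-helix leucine zipper factor known to activate autophagy and lysosome genes through E-boxes, sites of the form CANNTG, of which CACGTG is the best known. MXL-2 belongs to the same class of proteins, is the Mlx-like partner of the Mondo protein MML-1, and as a Max-like protein is known to bind CACGTG. Worm genetics has linked the Mondo complexes, HLH-30 and autophagy in longevity.

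MXL-2 regions lay at 6 of the 33 genes in the list for the whole experiment: epg-9, lgg-2, atg-2, atg-9, lgg-1 and hlh-30. The gene lgg-2 held a pair of them, so that there were 7 regions in all. The sequences at these 7 summits are printed first because they show which E-boxes, if any, lie under each peak. Each is read 5' to 3' on the strand of its gene from RefSeq's WBcel235 genome, which is ce11. Capitals mark every CANNTG, and none of these stretches overlaps an annotated exon. The stretch for epg-9 is the whole deposited region, IV:2602090-2602225 on the plus strand, and the others are the 101 bp centred on the summit. These lie at IV:10935468-10935568 (minus strand) in the lgg-2 intron, IV:10936101-10936201 (minus strand) before lgg-2, X:6807551-6807651 (plus strand) at atg-2, V:349201-349301 (plus strand) at atg-9, II:6348512-6348612 (minus strand) at lgg-1 and IV:4028360-4028460 (minus strand) at hlh-30.
epg-9: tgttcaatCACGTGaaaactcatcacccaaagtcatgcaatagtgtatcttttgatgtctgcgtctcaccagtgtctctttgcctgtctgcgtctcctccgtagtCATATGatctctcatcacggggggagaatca
lgg-2 intron: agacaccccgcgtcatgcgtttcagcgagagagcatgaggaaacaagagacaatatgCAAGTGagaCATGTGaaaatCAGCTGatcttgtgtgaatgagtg
lgg-2 upstream: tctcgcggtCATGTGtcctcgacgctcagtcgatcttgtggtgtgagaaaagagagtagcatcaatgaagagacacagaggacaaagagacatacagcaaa
atg-2: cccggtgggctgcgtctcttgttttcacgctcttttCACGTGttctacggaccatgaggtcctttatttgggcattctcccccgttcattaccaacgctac
atg-9: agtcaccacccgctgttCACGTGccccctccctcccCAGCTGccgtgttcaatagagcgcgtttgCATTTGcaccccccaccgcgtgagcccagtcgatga
lgg-1: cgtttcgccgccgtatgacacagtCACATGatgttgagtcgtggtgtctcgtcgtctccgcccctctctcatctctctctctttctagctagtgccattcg
hlh-30: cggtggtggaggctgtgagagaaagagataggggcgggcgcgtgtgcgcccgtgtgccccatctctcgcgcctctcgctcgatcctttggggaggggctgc

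The atg-2 and atg-9 stretches hold CACGTG, centred at −11.5 and −30.5 bp from the summit, where negative distances lie before it along the gene. At epg-9 the CACGTG is at −65.5 bp, near the edge of the region, and the letters around it read TCACGTGA, the palindrome known as the core of the CLEAR element of TFEB targets in mammals. A second E-box of epg-9, CATATG, lies 31.5 bp after the summit. The lgg-1 stretch holds CACATG, and both lgg-2 stretches hold CATGTG, which is CACATG read on the other strand. No CANNTG was found within 50 bp of the hlh-30 summit, where 68.3% of the 101 bases were G or C. The median over all 968 regions was 49.0% G or C, against 35.4% in the genome. At the other 6 member summits the G and C content ran from 46.5% in the lgg-2 intron to 63.4% at atg-9.

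In the list for the whole experiment, 6 of 33 members (18.2%) had a region, against 3.62% of the other protein-coding genes. The conservative list, which also covers both replicates, gave the same 6 members, against 3.73% of the others. Fewer were found in each replicate's own list. Replicate 1 had regions at 2 members, epg-9 and lgg-2 (6.06%), where 1.67% of the others had one. Replicate 2 had regions at 4 members, epg-9, lgg-2, atg-2 and atg-9 (12.1%), against 1.73%. Only epg-9 and lgg-2 had regions that overlapped between both replicates' lists, 6.06% of the members and 1.09% of the others. With 1 group and a list of genes chosen by hand, no test was made, and these shares describe the lists.

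**Figure D1:**
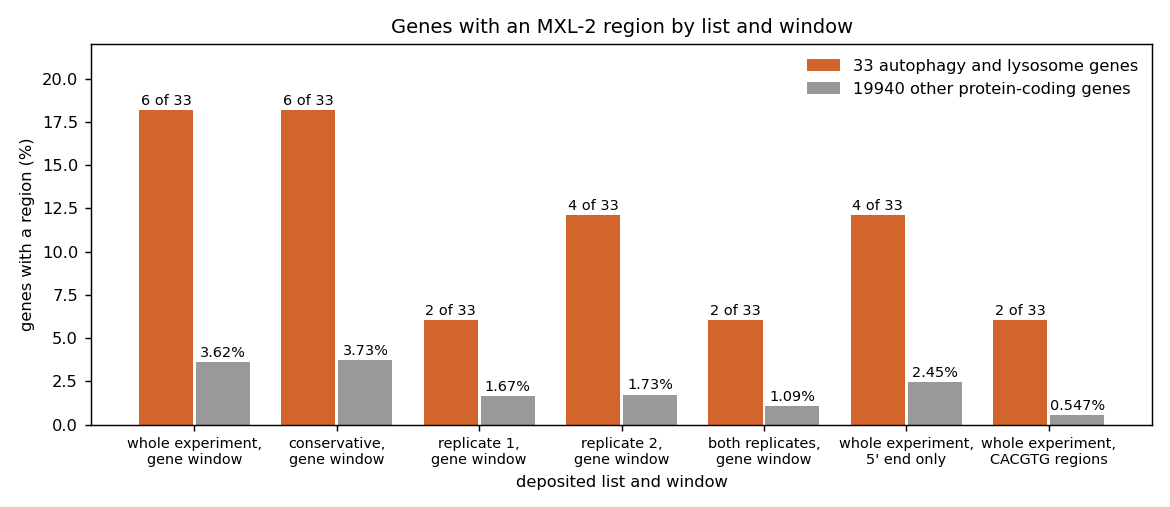
Percent of the 33 autophagy and lysosome genes (orange) and of the 19940 other protein-coding genes (grey) with an MXL-2 region, by deposited list and window; the bars start at 0 and carry the members' count and the other genes' percent. The member bars stand above the grey ones in every list, from 6 of 33 against 3.62% in the whole-experiment list down to 2 of 33 against 1.67% in replicate 1.

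Member windows were longer than most, with a median of 3775 bp against 3026 bp for the others. Per megabase of window there were 35.9 regions for the members and 9.52 for the others. Among other genes with a window of at least 3775 bp, 403 of 7058 (5.71%) had a region. In an equal window for all genes, within 1000 bp of the 5' end, 4 members remained, atg-2, atg-9, lgg-1 and lgg-2 (12.1%), against 2.45% of the others. The part of window length in the counts was not tested beyond these values. All 7 member regions lay in the window of 1 protein-coding gene alone, as did 561 of all 968 regions (58.0%), and each had the member's 5' end as its nearest. None overlapped a noncoding RNA gene, whereas 287 of the 968 regions (29.6%) did.

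The values below are the signal of the authors' peak caller, an enrichment that is set separately in each list. It ranks candidates within a list, and where the replicates' values stand side by side their scales may differ. The median of the 968 regions was 82.1. Each candidate also has an irreproducible discovery rate (IDR), the expected share of irreproducible peaks among those ranked as high, and every region of the authors' thresholded lists has an IDR of 0.01 or lower. The converse does not hold, since the ranked list of the whole experiment has 1104 candidates at or under 0.01 and the thresholded list 983 lines, for a reason not stated in the files. A gene without a region has therefore not necessarily failed that limit. Among the members without one, the lowest IDR of a strongest candidate in that ranked list was 0.0216, at bec-1.

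The transcription factor gene itself, hlh-30, had a weak region among the members (IV:4028280-4028539), with a signal of 72.2 and rank 645 of 968. Its summit lay in an intron 6541 bp into the gene and at −283 bp from the nearest of 10 annotated transcript starts. The replicates' candidates there had a signal of 27.0 in replicate 1 and 46.7 in replicate 2. Their IDRs within the replicates were 0.853 and 0.362, far from the threshold, and their summits lay −16 and 70 bp from that of the joint list. In replicate 1 the strongest of the 24 candidates in the gene's window lay elsewhere, 3214 bp from the 5' end, with a signal of 29.5. This window is the longest of the 33 at 21159 bp. The IDR of the region in the joint list was 0.00710, the highest of the 7, so hlh-30 stood just inside the threshold.

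Among the kinase complex genes, epg-9 stood apart. It encodes the homologue of mammalian ATG101, the partner of ATG13. The region in its intron, 1025 bp from the 5' end, had a signal of 289 and rank 44 of 968, the highest of the members. Replicate 1 gave 136 (rank 48 of 448, IDR 1.16e-05) and replicate 2 gave 152 (rank 42 of 454, IDR 1e-05), with summits at most 3 bp from that of the joint list. Each of these stood high in its own replicate's list. The region is narrow, 136 bp against a median of 260 bp, and is one of 35 under 150 bp, as is the one in the lgg-2 intron at 112 bp. Neither replicate's candidate, 68 and 94 bp wide, reached the CACGTG at its edge.

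Weaker signal lay elsewhere in epg-9. Replicate 1 had a further region 623 bp from the 5' end (signal 44.0, rank 400 of 448), where the candidate of replicate 2 had 28.9 and an IDR of 0.447. The conservative list called this place (54.1, 528 bp from the 5' end) and another 3776 bp from it, in a coding exon and 59 bp past an internal transcript start (59.4, with CACGTG). These ranked 971 and 930 of 993, and the nearest 5' end to the second is that of vamp-7.

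The other members of the kinase complex had no region. The kinase gene unc-51, homologue of ULK1, had strongest candidates of 27.1 and 25.1 in replicates 1 and 2. These lay apart, at 4492 and 2061 bp from the 5' end, with IDRs of 0.709 and 0.784. The gene's strongest candidate in the joint list had an IDR of 0.0328, above 0.01. The adaptor gene atg-13 had 11.5 and 16.18, among the lowest of all members.

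Of the 3 genes of the lipid kinase complex 0 had a region, beside 3.62% of other genes. For bec-1, the Beclin homologue, the strongest candidates had 28.4 in replicate 1 and 29.3 in replicate 2, at −401 and −317 bp from the 5' end. The joint list gave 56.6 at an IDR of 0.0216, also above 0.01, and the IDRs within the replicates were 0.451 and 0.252. The gene epg-8, homologue of mammalian ATG14, had 24.6 and 24.8, again before its 5' end in both replicates. The catalytic subunit gene vps-34 had 26.4 in replicate 1 and no candidate in replicate 2 or the joint list.

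Membrane and lipid supply held regions at 2 of 4 genes, against 3.62% of other genes. The lipid transfer protein gene atg-2 had one in an intron, 838 bp from the 5' end (X:6807471-6807730, signal 113, rank 248). Its replicates gave 55.4 and 58.7, with summits within 8 bp of the joint one, and IDRs of 0.0386 and 0.00210. Only the second passed the authors' threshold. The region of atg-9, which encodes the membrane-spanning lipid scramblase, lay at −134 bp (V:349121-349380, signal 86.5, rank 427). Replicate 1 gave 37.9 (IDR 0.0928) and replicate 2 gave 50.4 (IDR 0.00223). The other genes of this step, epg-3 (VMP1 homologue, 20.3 and 24.8) and atg-18 (a phosphoinositide-binding WIPI protein, 15.1 and 18.4), had none.

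The conjugation genes held regions at 2 of 10 members, against 3.62% of other genes, and both encode ubiquitin-like proteins of the LC3 family. Another ubiquitin-like protein gene of autophagy, lgg-3, is not among the members and had no region. The LC3 homologue gene lgg-2 had its stronger region in an intron 385 bp from the 5' end (IV:10935466-10935577, signal 166, rank 96). Replicate 1 gave 105 there (rank 70 of 448) and replicate 2 gave 66.8 (rank 171 of 454). The IDRs were 3.62e-05 and 0.000364, so that both passed, with replicate 1 the higher in rank. Its second region lay at −248 bp (IV:10936021-10936280, signal 69.9, rank 702), with 31.1 and 41.2 in the replicates. Those candidates had IDRs of 0.0306 and 0.0170, and neither replicate's own list held it.

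The GABARAP homologue gene lgg-1 had a region at −843 bp (II:6348432-6348691, signal 78.6, rank 540). The replicates gave 36.2 and 39.1 with summits −19 and −18 bp from the joint one, at IDRs of 0.282 and 0.0239. Of the 8 other conjugation genes, the E1-like enzyme gene atg-7 had the highest mean percentile among all genes, 86.7, from candidates of 27.7 and 26.0. Those candidates lay apart, at 874 and −593 bp from the 5' end. The protease gene atg-4.2 differed between the replicates, with 19.5 in replicate 1 and 40.4 in replicate 2. These were different candidates, at 1016 and −426 bp from the 5' end. The genes atg-16.1 and atg-16.2, whose products join ATG5 in the ligase, had 20.3 and 21.0 in replicate 1 and no candidate in replicate 2. The E2-like enzyme genes atg-3 (20.4 and 18.6) and atg-10 (10.6 and 20.8), the protease gene atg-4.1 (24.97 and 17.2) and atg-5 (28.2 and 20.6) also had none past the threshold.

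**Figure D2:**
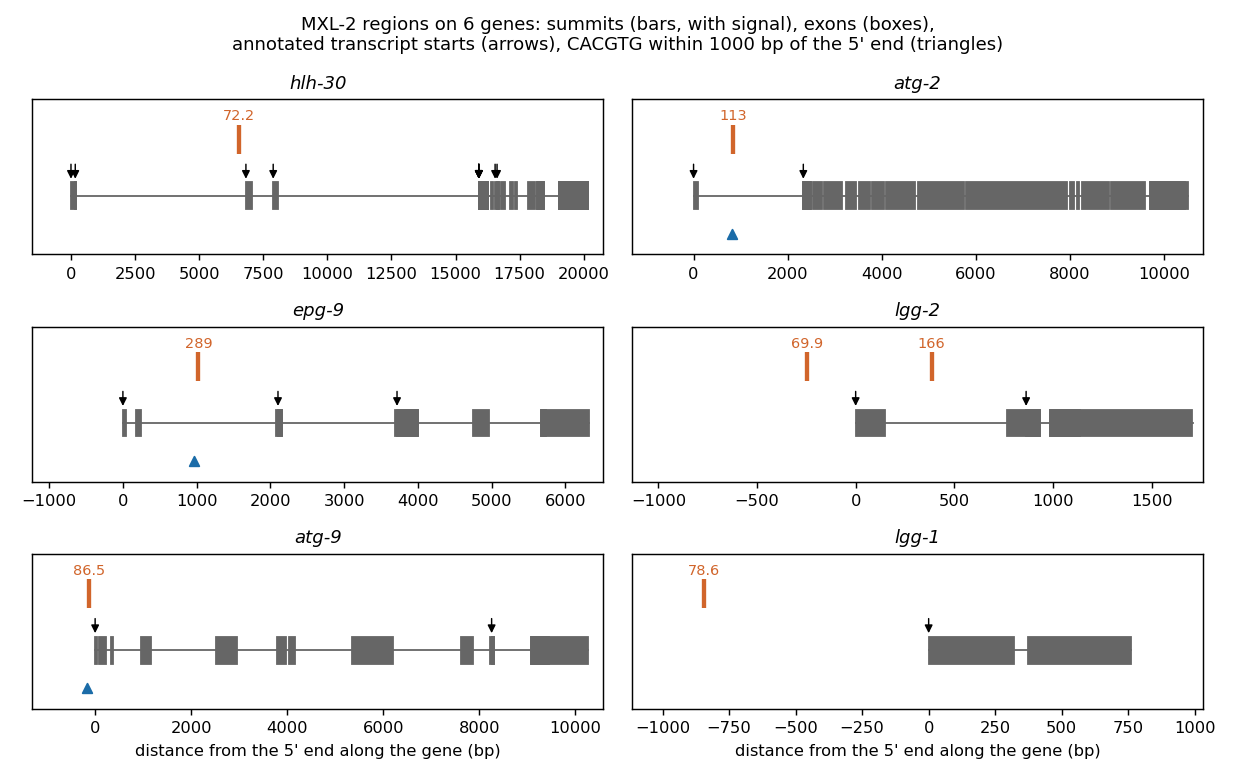
The 6 members with a region, drawn from 5' end to 3' end along each gene (horizontal axes in bp from the annotated 5' end, each to its own scale), with summits as orange bars labelled by signal, exons as boxes, annotated transcript starts as arrows and each CACGTG within 1000 bp of the 5' end as a triangle. Summits of hlh-30, epg-9, atg-2 and 1 of the lgg-2 pair lie in introns, and only atg-2, atg-9 and epg-9 have a triangle, under the bar at atg-2, beside it at atg-9 and just before it at epg-9.

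Of the 3 cargo and maturation genes 0 had a region, which at the 3.62% of other genes is no departure from the background. Candidates at sqst-1 (the p62 homologue), epg-2 (a nematode cargo adaptor) and epg-5 (needed for autolysosomes) ran from 20.1 to 21.2 in replicate 1 and from 17.8 to 24.0 in replicate 2. All 6 values lie above the median of all other genes, 17.7 in each replicate. That of epg-5 in replicate 2 is barely so (percentile 50.4), in a window of 12022 bp. The mean percentiles ran from 56.4 (epg-5) to 71.0 (epg-2).

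Of the 9 lysosome genes 0 had a region, which at the 3.62% of other genes is no departure from the background. Candidates ran from 17.8 to 29.97 with a median of 21.99 in replicate 1, and from 12.3 to 36.8 with a median of 18.4 in replicate 2. The aspartyl protease gene asp-1 was the highest member without a region, at a mean percentile of 91.9. Its strongest candidates had 26.9 in replicate 1, at −164 bp, and 36.8 in replicate 2, at 1023 bp, so they were different candidates. The membrane protein gene lmp-1 (LAMP homologue) had 29.97 in replicate 1 and 17.3 in replicate 2, both upstream of the gene. The lowest in replicate 2 was cup-5, the mucolipin channel homologue, with 19.7 and 12.3. The proteases asp-3, asp-4 and cpl-1, the scavenger receptor gene scav-3, the sulfatase gene sul-2 and the sterol transporter gene ncr-1 lay within the ranges above.

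**Figure D3:**
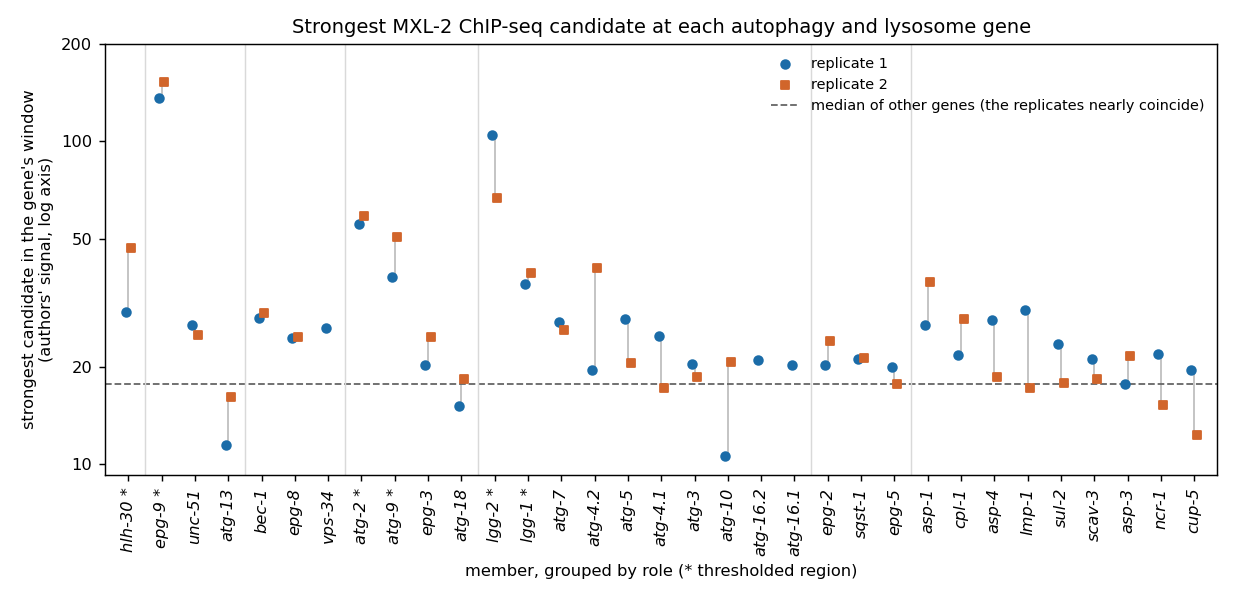
Signal of the strongest candidate in each member's window (vertical log axis, authors' signal) in replicate 1 (circles) and replicate 2 (squares), grouped by role along the horizontal axis, with asterisks on the 6 members with a region and a dashed line at the median of the other genes. The genes epg-9, lgg-2, atg-2 and atg-9 stand above the rest in both replicates, and vps-34, atg-16.1 and atg-16.2 have no point in replicate 2.

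Over all 33 members, those with a region included, the strongest candidates sat above the middle of the ranked lists. In replicate 1 all 33 had a candidate, as did 80.6% of the others, and the median strongest signal was 23.6 against 17.7. In replicate 2, 30 of 33 had one against 79.5%, with medians of 21.3 and 17.7. The mean of the members' medians over the replicates was 22.4 ± 1.58 (SD, n = 2), from lists whose signal is set separately. Members above the others' median numbered 30 in replicate 1 and 25 in replicate 2, where about 50% of other genes lie. Above the others' percentile 95 there were 5 and 8 members, against 4.99% and 4.97% of the others. In replicate 1 all of these had a region, and in replicate 2 all but atg-4.2 and asp-1 did.

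In the equal window of 1000 bp to either side of the 5' end, fewer members stood above the others' median. There 26 of 33 members had a candidate in each replicate, against 68.4% and 66.6% of the others. The medians were 17.8 against 13.999 in replicate 1 and 18.2 against 14.1 in replicate 2. Members above the others' median numbered 20 and 23. Those past percentile 95 numbered 6 and 5, against 4.98% of the others in each replicate. Among them were genes without a region, lmp-1 in replicate 1 (percentile 95.3) and atg-4.2 in replicate 2 (percentile 98.3). In the other replicate lmp-1 was at percentile 64.1, and atg-4.2 had no candidate in this window.

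The 27 members without a region ran from 10.6 (atg-10) to 29.97 (lmp-1) with a median of 21.2 in replicate 1. In replicate 2 the 24 of them with a candidate ran from 12.3 (cup-5) to 40.4 (atg-4.2) with a median of 20.7. Of these, atg-4.2 and asp-1 were past percentile 95 in replicate 2, and atg-4.2 was above lgg-1 there. The strongest candidate of none of the 27 reached an IDR of 0.05 in a replicate's list, where the lowest were 0.192 (asp-4) and 0.0535 (asp-1). Over all members, 3 strongest candidates reached it in replicate 1 and 5 in replicate 2, against 2.77% and 2.74% of the others.

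The replicates were compared gene by gene. Over the 30 members with a candidate in both, the log2 signals had a Pearson r of 0.810 and the signals a Spearman rho of 0.568. Without the 6 genes with a region, r was 0.230 and rho 0.193 over 24 genes. The 6 were called from both replicates together, and leaving them out narrows the range of signals. The values of r with and without them are therefore not alike in range. The part of this in the lower r was not tested. For 13889 other genes, those with a region included, r was 0.516 and rho 0.385. These are correlations across genes of the same pair of libraries, given as a description. The strongest candidates of both replicates lay within 100 bp of each other at 5 of the 6 genes with a region, all but hlh-30. That was so at 5 of the 24 without one (20.8%: asp-3, bec-1, epg-8, lmp-1 and scav-3). Among the other genes, those with a region again included, it was so at 3485 of 13889 (25.1%). The call of the 6 on both replicates also favours summits that lie close, so 5 of 6 is no separate measure of agreement.

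**Figure D4:**
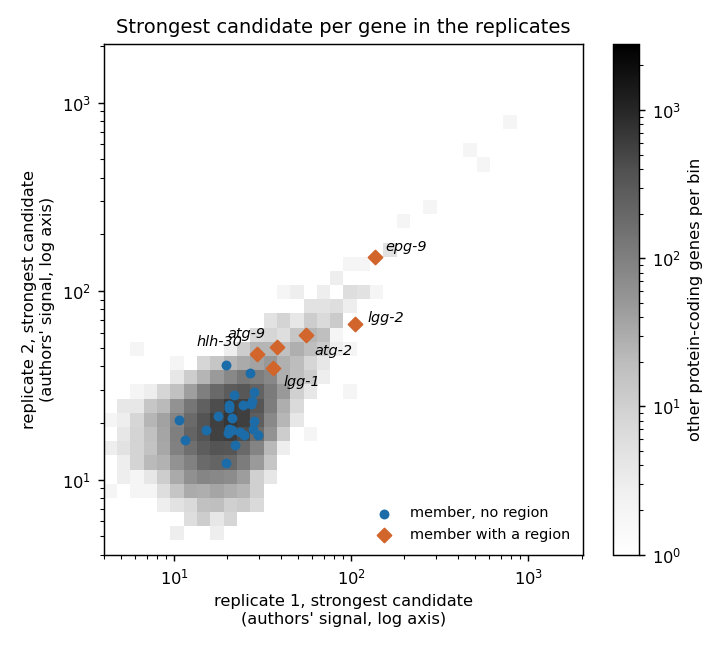
Strongest candidate per gene in replicate 1 (horizontal log axis) against replicate 2 (vertical log axis), both in the authors' signal; diamonds are members with a region, circles members without one, and grey squares count other protein-coding genes. The diamonds of epg-9, lgg-2 and atg-2 lie beyond all other members in both replicates, while the circles lie among the grey squares, with atg-4.2 (19.5 and 40.4) at the upper edge.

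E-boxes under the member summits varied, as the printed sequences show. Of the 7 member regions, 2 had CACGTG (a palindrome, so alike on both strands) at most 50 bp from the summit, those of atg-2 and atg-9. It lay in 157 of all 968 regions (16.22%) and in 2.17% of 1936 windows of the same length 500 bp to either side. Counted by gene, 2 of 33 members (6.06%) had a region with CACGTG, against 0.547% of the others. CACATG or its other strand CATGTG lay in 3 of the 7 regions, against 13.6% of all regions and 4.34% of the flanking windows. Any CANNTG, which takes in both, lay in 6 of 7, against 49.5% and 33.5%. TCACGTGA, which contains CACGTG, was in none of the 7 within 50 bp, and in 4.65% of all regions and 0.103% of the flanking windows.

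Most CACGTG letters near these genes lay outside any region. Within 1000 bp of the 5' end there were 13 such sites at 11 of the 33 members (33.3%), where 28.3% of other genes had one. Only 3 of the 13 (23.1%) were inside a region, at 826 bp from the 5' end of atg-2, −165 bp from that of atg-9 and 959 bp from that of epg-9. No candidate of either replicate covered the epg-9 site. For the other genes, 115 of 7165 sites (1.61%) were inside one, each site counted once per gene window. These shares are not independent of the share of genes with a region, 18.2% of members and 3.62% of the others. The members' other 10 sites were at sul-2, lmp-1, sqst-1, atg-3, epg-5, atg-4.1, epg-2 and atg-13, with a pair each at atg-3 and epg-2. TCACGTGA was found at 3 members (9.09%, against 2.73% of other genes), atg-3, atg-13 and epg-9. That at atg-13, at −396 bp, lay under a candidate of replicate 2 (15.1), and the one at atg-3, at −740 bp, under none.

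The hexamer CTGCGT (other strand ACGCAG), chosen after the sequences were seen, occurs at −38.5 bp from the atg-2 summit, and at −15.5 and 13.5 bp from that of epg-9. It does not overlap the CANNTG letters there. Of the 7 member regions 2 had it at most 50 bp from the summit, as did 13.0% of all 968 and 1.91% of the flanking windows.

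Genes of the same pathways outside the 33 were counted from 7 lists of 119 genes, of which 116 were found, and 4 had a region. Among 11 further autophagy genes there were 2, epg-7 and epg-4. The gene epg-7, whose product is a scaffold for selective autophagy, had a region at −170 bp (X:7334414-7334673, signal 104). The replicates gave 52.9 and 51.8 and both lists held it, the only one of the 4 found in both. Its summit sequence on the plus strand (X:7334494-7334594, RefSeq WBcel235, CANNTG in capitals) is shown because CACGTG there again stands within TCACGTGA, 30.5 bp after the summit.
epg-7: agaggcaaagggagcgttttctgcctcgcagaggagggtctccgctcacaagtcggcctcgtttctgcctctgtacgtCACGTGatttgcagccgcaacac

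The membrane protein gene epg-4 had a weaker region at −75 bp (signal 63.0, rank 872 of 968). Candidates there had 23.4 and 36.6 in the replicates, at IDRs of 0.827 and 0.218. Of 16 genes of endosome traffic, 1 had a region, rab-7, the GTPase of late endosomes, at −782 bp (signal 119). Its replicates gave 56.7 and 62.5 at IDRs of 0.0731 and 0.000720. Among 19 further cathepsin genes, cpr-9 had a region at −841 bp (signal 94.3), which overlaps transfer RNA and other noncoding RNA genes. Candidates at cpr-9 had 59.9 and 45.5 in the replicates, at IDRs of 0.00512 and 0.626. None was found at 11 genes of the TOR complex and Rag GTPases, 21 of the V-ATPase, 8 lysosomal lipases and 30 other lysosomal membrane proteins and hydrolases. Over all 116 genes, 4 with a region is close to the 3.62% of protein-coding genes other than the 33.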

How the data were processed

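Sources were 8 deposited peak lists on the ce11 assembly: 1 ranked and 1 thresholded list for each replicate, for the whole experiment and for a conservative version of it. Per the file headers they were made from filtered alignments and further files whose type is not stated. Which aligner and peak caller made them is not stated in those headers. The deposited signal is the authors' enrichment per peak, set per list. The deposited −log10 values of the ranked lists are the −log10 of the IDR, printed here as the IDR. No read counts are in these lists, so depth is unknown and no interval for it is given. With 2 replicates of 1 group, spread is given without p-values.

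Overlapping lines were joined, keeping the strongest summit, which made 968 regions of the whole experiment from 983 lines. Regions were placed on Ensembl release 115, and starts and ends are counted from 1. The 5' end is the annotated one, often a trans-splice site in this organism. A gene without a candidate counted lowest in medians over all genes and in percentiles. Scripts ran in Python 3.11.15 with pandas 2.3.3, numpy 2.4.6 and scipy 1.17.1, and the assignment of summits to windows was tested on simulated data. Values are given in full for hlh-30, each member with a region in any thresholded list, the 3 members without one of highest mean percentile and the 3 of lowest. Other members with values were named after their values were seen. Of the other pathway genes those with a region are named, at most 4 per list. The names atg-15, rubc-1 and asp-10 were not matched in the annotation. Members and lists were chosen with earlier results of these data known. Alternatives changed the list, the threshold, the joining of lines, the window, the assignment rule, noncoding RNA overlap and the motif window. A comparison with other genes of long windows was added after seeing the data.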

Additional observations from a re-analysis of the deposited data

How the results depend on the processing

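The count of 6 members with a region stayed between 4 and 8 in 10 of 12 alternatives. It was 2 within 500 bp of the 5' end, and with 1 replicate left out it ranged from 2 (without replicate 2) to 4. At an IDR of 0.05 or lower 8 members were called, bec-1 and unc-51 added. The percent of other genes, 3.62, was 1.67 to 1.73 with 1 replicate left out, 1.84 in the 50% of regions of higher signal, 7.44 at an IDR of 0.05, 2.45 within 1000 bp of the 5' end, 1.51 within 500 bp, 2.94 for the gene body or 500 bp, 4.92 for the gene body or 2000 bp, 4.1 with each region given to its nearest 5' end, 2.59 without regions at noncoding RNA genes and 5.71 for genes of long windows, added after seeing the data. Members whose region has CACGTG numbered 1 within 25 bp of the summit, 3 within 100 bp and 4 with CACATG allowed. With 1 replicate left out they numbered 0 (without replicate 2) to 2. No share of other genes is given at these motif settings, and a wider window or looser motif can only raise a count. A rise there is therefore no result about the members. The 2 members in both replicates' lists stayed 2 in all 3 alternatives. The members' median signal, 22.4, was 18.01 within 1000 bp of the 5' end and 21.3 to 23.6 with 1 replicate left out. The causes of these shifts were not tested, beyond the fewer regions or shorter windows that the alternatives use. No paired analysis was possible because there is only 1 group. The depth of the libraries is unknown, so a gene without a region cannot be called unbound.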
